A study of Homo sapiens with 12 samples.

Results

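The AP-1 (activator protein-1) factors and their close relatives were followed in HK-2 cells, a human cell line made from immortalised proximal tubule cells of a kidney, by RNA-seq of poly(A) RNA. The 10 genes, taken by their symbols from a list, were FOS, FOSB, FOSL1, FOSL2, JUN, JUNB, JUND, ATF3, MAFF and MAFK. They are 10 of the 58735 genes in the count table. This list and the other gene lists below were chosen with earlier results of these data known, so their counts beside the background are descriptive. Cells were exposed for 48 h to iohexol at 75 mg I/mL (an iodinated X-ray contrast agent), to cisplatin at 5 μM (a platinum drug that crosslinks DNA) or to vancomycin at 4 mM (a glycopeptide antibiotic), while the control group received water. The 4 groups held 3 samples each, and all 12 samples came from the same cell line grown in the same medium, which limits the model to an immortalised line and 1 dose and 1 time for each drug. The labels do not say that the samples of a group were separate cultures, so the p-values measure the spread between these samples, which may be technical.

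AP-1 is a dimer of basic leucine zipper proteins. JUN proteins can pair with each other or with a FOS protein, whereas FOS proteins bind DNA only with a partner. FOS and FOSB are classic immediate early genes, switched on within minutes of a growth or stress signal through the MAP kinases and serum response factor. ATF3 is a stress-induced relative that pairs with JUN proteins. MAFF and MAFK are small MAF proteins, which lack an activation domain of their own and pair with NRF2 (gene NFE2L2) or BACH1 at antioxidant response elements. In injured kidney tubules, ATF3 and the FOS and JUN genes are known as early markers of stress.

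All 10 genes lay where GENCODE 29 places them on GRCh38, with equal start, end and exonic length. The files place FOS (ENSG00000170345) at chr14:75278774-75282230 (+), FOSB (ENSG00000125740) at chr19:45467995-45475179 (+), FOSL1 (ENSG00000175592) at chr11:65892049-65900573 (-) and FOSL2 (ENSG00000075426) at chr2:28392448-28417312 (+). JUN (ENSG00000177606) lies at chr1:58780788-58784327 (-), JUNB (ENSG00000171223) at chr19:12791496-12793315 (+) and JUND (ENSG00000130522) at chr19:18279760-18281622 (-). ATF3 (ENSG00000162772) lies at chr1:212565334-212620777 (+), MAFF (ENSG00000185022) at chr22:38200767-38216511 (+) and MAFK (ENSG00000198517) at chr7:1530714-1543043 (+). Each value counts reads over all exons of a gene, so transcripts from different starts of 1 gene are not told apart.

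RefSeq promoter windows (GRCh38.p14) were at hand for 8 of the 10 genes, all but FOSL1 and MAFK, with 10 windows in all. The 250 bases before each start were searched on both strands for 5 motifs: the AP-1 site TGACTCA, the cyclic AMP response element (CRE) TGACGTCA, the variant TGACATCA found in the JUN promoter, the CArG box bound by serum response factor, and the CRE core TGACGT, which is part of TGACGTCA and was added after these sequences had been read. The 5 sequences below are shown because they belong to the members with the largest rises and to JUN. They are written 5′ to 3′ on the strand of the gene with the motif matches in capitals, and are cut where GENCODE 29 exons of the gene begin. For JUN and MAFF the match itself lay inside such an exon, and 30 bases around it are given.
FOS, chr14:75278698-75278773 (+): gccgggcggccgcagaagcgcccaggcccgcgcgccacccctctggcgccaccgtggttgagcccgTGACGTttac
FOSB, chr19:45467866-45467994 (+): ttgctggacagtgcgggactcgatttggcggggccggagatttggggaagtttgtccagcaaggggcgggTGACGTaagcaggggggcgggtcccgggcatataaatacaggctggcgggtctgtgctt
JUN, chr1:58784096-58784125 (-): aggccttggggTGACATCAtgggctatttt
ATF3, chr1:212565277-212565333 (+): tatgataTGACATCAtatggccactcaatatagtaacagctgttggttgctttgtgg
MAFF, chr22:38201929-38201958 (+): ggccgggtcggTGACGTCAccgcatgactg

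The core TGACGT began 64 bases before the start of FOS, 60 before that of FOSB and 66 before that of FOSL2. The whole palindrome TGACGTCA stood 54 bases before a start of MAFF and 200 before that of JUND, where a further core match lay 87 bases before the start. TGACATCA stood 67 bases before the start of JUN and 123 before a start of ATF3. No window of the 8 genes held TGACTCA or a CArG box. Of 35116 promoter windows of the same length, 7.10% held TGACGT, 1.65% TGACGTCA, 2.37% TGACATCA, 4.20% TGACTCA and 1.16% a CArG box. A match is a description of the letters only.

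The samples held 14057282 to 18177109 counts each. Levels are given as CPM, counts scaled to the size of each library with TMM factors, and 3 counts in a library correspond to 0.177 to 0.218 CPM. All 10 members passed the filter on low counts in every comparison. Replicates of the cisplatin group differed least: the chi-square of their counts over genes, divided by its degrees of freedom, was 2.34 to 2.66, against 3.24 to 10.8 in the control, 6.24 to 13.1 in the vancomycin and 3.82 to 17.5 in the iohexol group. The third iohexol sample stood apart from the other two iohexol samples (17.5 and 16.5, against 3.82 between those) and the first control sample from the other controls (8.03 and 10.8, against 3.24). In these 2 samples JUNB, JUN, JUND, FOSL2 and MAFK were each the lowest of their group. Whether this shared pattern is technical was not tested, and changes whose call or side of the fold threshold turned on either sample are given without it as well. In bulk RNA, a change in the level per cell and a change in the share of cells with the transcript cannot be told apart.

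**Figure D1:**
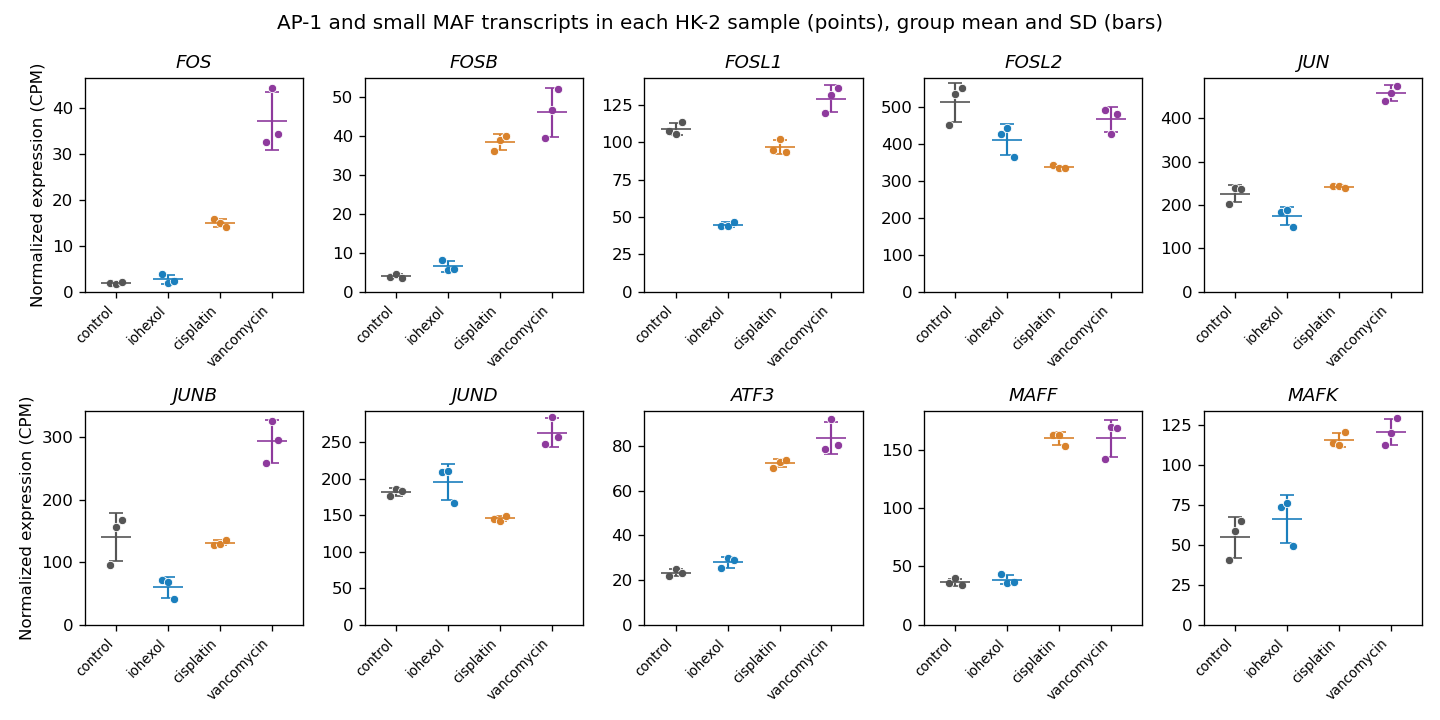
Levels of the 10 genes in each of the 12 samples (CPM on a linear axis from 0, 1 point per sample, 3 per group, with bars for the group mean and SD). FOS and FOSB lay near 2 to 8 CPM in the control and iohexol samples and above 14 CPM in every cisplatin and vancomycin sample, whereas FOSL1 and JUNB were lowest in the iohexol samples.

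The first question was how each drug changed these genes against the control group. Cisplatin and vancomycin both raised FOS, FOSB, ATF3 and MAFF by more than 2-fold. Both also raised MAFK, by more than 2-fold with all samples and by less without the first control sample (log2 changes of 0.90 and 0.92), and vancomycin also raised the 3 JUN genes. Iohexol raised none of the 10 by 2-fold and lowered FOSL1 by more than that. It also lowered JUNB, by more than 2-fold with all samples and by 0.98 on the log2 scale without the third iohexol sample. A gene is called changed at a Benjamini-Hochberg adjusted p under 0.05 in edgeR's quasi-likelihood test over all genes tested, and a differentially expressed gene (DEG) also moves by more than 1 on the log2 scale. The 3 comparisons share the control samples.

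With iohexol, 1 of the 10 members was called higher (background 11.2% of 15657 genes) and 3 lower (9.77%), and 2 were DEGs (5.28% of genes). With cisplatin, 5 were called higher (29.2% of 15876 genes) and 3 lower (30.6%). The 3 of 10 called lower are a share near the background. All 5 that rose with cisplatin were DEGs, which 7.62% of genes were in that direction. With vancomycin, 9 were called higher (29.0% of 15819 genes) and 0 lower (28.8%), and 6 were DEGs, against 10.8% of genes that were DEGs in that direction. In edgeR no member was lower with vancomycin at an unadjusted p under 0.05 either, and DESeq2 and limma-voom also called 0. Without the first control sample 8 were higher and 1, FOSL2, lower with vancomycin, beside 26.9% and 26.4% of all genes. That omission left 4 DEGs with vancomycin, where JUNB and MAFK fell under the fold threshold, and 4 with cisplatin, where MAFK did. The same omission gave 0 higher and 4 lower with iohexol, beside 8.53% and 7.84% of all genes. Leaving out the third iohexol sample gave 3 and 3, beside 14.8% and 13.5%. The median log2 change of the members was 0.11 with iohexol, 0.58 with cisplatin and 1.06 with vancomycin, beside 0.01, 0.01 and -0.01 over all genes tested.

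These directions are relative to TMM scaling. Scaling by library size alone moved the median of all genes by 0.22 on the log2 scale with cisplatin, 0.07 with iohexol and -0.08 with vancomycin. The share of called genes that were higher went from 48.9% to 68.1% with cisplatin, from 53.4% to 67.5% with iohexol and from 50.2% to 43.6% with vancomycin. Under that scaling 6 members were higher and 1 lower with cisplatin (43.6% and 20.4% of all genes), 1 higher and 2 lower with iohexol (14.3% and 6.89%), and 8 higher and 1 lower with vancomycin (25.5% and 33.0%).

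**Figure D2:**
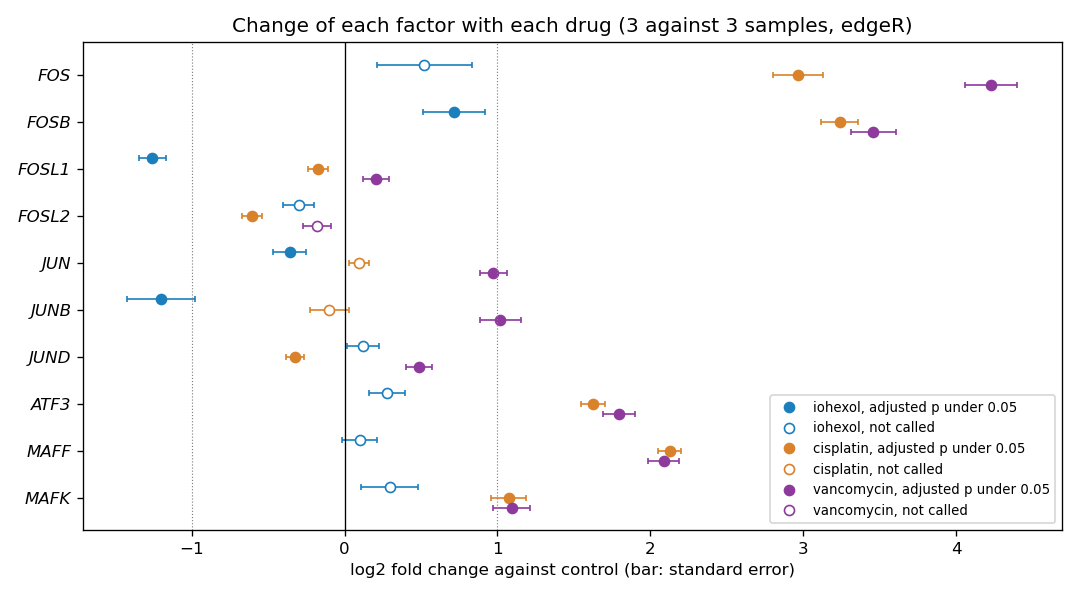
Log2 fold change of each gene against the control group for the 3 drugs (points, with bars of 1 standard error from edgeR). With all samples FOS, FOSB, ATF3, MAFF and MAFK lie above 1 with cisplatin and vancomycin, FOSL1 and JUNB below -1 with iohexol, and JUN and JUNB near 1 with vancomycin only.

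FOS, the founding member of the family and a partner of the JUN proteins, was at a low level in control cells. Its level was 1.96, 1.63 and 2.17 CPM in the control samples, 3.87, 1.85 and 2.47 with iohexol, 15.8, 15.02 and 14.2 with cisplatin and 32.7, 44.4 and 34.5 with vancomycin. The cisplatin and vancomycin samples overlapped neither the controls nor each other, while the iohexol samples overlapped the controls. FOS rose 7.81-fold with cisplatin (log2 change 2.96, SE 0.16; edgeR adjusted p = 6.15e-11) and 18.8-fold with vancomycin (4.23, SE 0.17; adjusted p = 1.19e-15), and the difference with iohexol was 0.52 (SE 0.31; adjusted p = 0.264).

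FOSB encodes a close relative of FOS that is also known as an early gene. The control samples held 3.92, 4.58 and 3.68 CPM of FOSB, the iohexol samples 8.22, 5.69 and 5.95, the cisplatin samples 36.3, 39.0 and 40.2 and the vancomycin samples 39.5, 46.7 and 52.1. All 9 treated samples were above all 3 controls, and the cisplatin and vancomycin samples overlapped. The log2 change was 3.24 (SE 0.12; edgeR adjusted p = 5.19e-13) with cisplatin and 3.46 (SE 0.15; adjusted p = 2.49e-15) with vancomycin. With iohexol FOSB rose by 0.72 (SE 0.20; edgeR adjusted p = 0.0258), a call that was lost without the first control sample (adjusted p = 0.0613), without the third (0.0918) and without the first iohexol sample (0.119). FOSB lies across ERCC1 on the other strand, but the exons of both share 0 bases.

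FOSL1 (FRA-1) is a FOS relative whose own transcription is known to depend on AP-1, and it moved otherwise than FOS and FOSB. The control samples held 107, 106 and 113 CPM, the iohexol samples 43.8, 44.3 and 46.7, the cisplatin samples 94.5, 102 and 93.5 and the vancomycin samples 119, 132 and 136. The iohexol samples lay far below all others. FOSL1 fell by 1.26 on the log2 scale with iohexol (SE 0.09; edgeR adjusted p = 1.97e-06), which held without any single sample (-1.29 to -1.24). The changes with cisplatin (-0.17, SE 0.07; edgeR adjusted p = 0.032) and vancomycin (0.21, SE 0.09; adjusted p = 0.0484) were small. The call with cisplatin was lost without the third control sample (adjusted p = 0.0737), the first cisplatin sample (0.12) or the third cisplatin sample (0.15), as well as with at least 10 counts required in every sample (0.0635) and in the fit of all 12 samples (0.0771), and under library size scaling the change became 0.05. The call with vancomycin was lost without any single control sample (adjusted p = 0.0663, 0.197 and 0.075) and without the second (0.0801) or the third vancomycin sample (0.173). It was also lost under library size scaling (0.13, edgeR adjusted p = 0.214) and with no filter on low counts (0.149). Of the 31-base stretches sampled from FOSL1 transcripts, 8.95% also occur in other genes, mostly its pseudogene FOSL1P1, so a part of its reads could be assigned elsewhere.

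FOSL2 (FRA-2) had 452, 535 and 549.9 CPM in the control samples, 427, 442 and 363 with iohexol, 341, 334 and 335 with cisplatin and 490.3, 427 and 481 with vancomycin. The cisplatin samples were below all the others. FOSL2 fell by 0.61 with cisplatin (SE 0.07; edgeR adjusted p = 4.18e-07), and the direction held under library size scaling (-0.39). The change was -0.30 (adjusted p = 0.058) with iohexol and -0.18 (adjusted p = 0.102) with vancomycin in edgeR. The iohexol change passed in DESeq2 (adjusted p = 0.0356), and in edgeR with RLE factors (0.0477), with no filter on low counts (0.00507) and in the fit of all 12 samples (0.0114). Without the first control sample both passed the edgeR test (-0.39, adjusted p = 0.0247, and -0.26, adjusted p = 0.0148). The vancomycin change also passed under library size scaling (-0.26, adjusted p = 0.0207).

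JUN, the central AP-1 subunit and a target of JUN N-terminal kinase, had 203, 239 and 236 CPM in the control samples, 185, 188 and 150.2 with iohexol, 243, 244 and 238 with cisplatin and 439, 457 and 475 with vancomycin. Every vancomycin sample was above every other sample, and every iohexol sample below every other. JUN rose by 0.97 with vancomycin (SE 0.09; edgeR adjusted p = 1.53e-09) and fell by 0.36 with iohexol (SE 0.11; adjusted p = 0.035). The iohexol call was lost without the second or the third control sample (edgeR adjusted p = 0.128 and 0.0941), without the first iohexol sample (0.052) and under library size scaling (-0.29, adjusted p = 0.0831). With cisplatin the difference was 0.09 (SE 0.07; edgeR adjusted p = 0.218), which became 0.31 (adjusted p = 0.000499) under library size scaling.

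JUNB, often a weaker activator than JUN, showed the widest range of the 3 JUN genes. Its control samples held 96.3, 157 and 168 CPM, the iohexol samples 71.0, 68.9 and 40.8, the cisplatin samples 128, 129.9 and 136 and the vancomycin samples 258, 326 and 296. Even the low first control sample was above all iohexol samples, and the vancomycin samples were above all others. JUNB rose by 1.02 with vancomycin (SE 0.13; edgeR adjusted p = 6.35e-07) and fell by 1.20 with iohexol (SE 0.22; adjusted p = 0.00251). The rise with vancomycin was 0.81 (edgeR adjusted p = 4.65e-07) without the first control sample. Without the third iohexol sample the fall with iohexol was 0.98 (edgeR adjusted p = 3.77e-05), no longer past the fold threshold, which left 1 of the 10 genes a DEG with iohexol. With cisplatin the difference was -0.10 (SE 0.13; edgeR adjusted p = 0.522). It was -0.31 (adjusted p = 2.37e-06) without the first control sample, 0.03 (adjusted p = 0.83) without the third and 0.12 under library size scaling. JUNB shares 259 of its 1820 exonic bases (14.2%) with HOOK2, an adaptor of microtubule transport on the other strand, which had mean counts of 422, 453, 405 and 521 in the control, iohexol, cisplatin and vancomycin groups. Whether the counting used strand is not given in the sources used here, and without it reads from this stretch cannot be told apart.

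JUND, which tends to be steadily expressed, had 177, 187 and 184 CPM in the control samples, 209, 211 and 167 with iohexol, 145, 143 and 149.9 with cisplatin and 248, 285 and 257 with vancomycin. The 4 groups separated apart from control and iohexol, which overlapped through the third iohexol sample. JUND rose by 0.49 with vancomycin (SE 0.09; edgeR adjusted p = 3.26e-05) and fell by 0.33 with cisplatin (SE 0.06; adjusted p = 0.000129), which became -0.11 (adjusted p = 0.117) under library size scaling. The iohexol difference was 0.12 (SE 0.10; edgeR adjusted p = 0.445), and 0.23 (adjusted p = 0.0383) without the third iohexol sample.

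ATF3, a stress-induced factor that binds CRE-like sites, had 21.9, 24.9 and 23.4 CPM in the control samples, 25.2, 29.9 and 29.0 with iohexol, 70.2, 73.0 and 73.9 with cisplatin and 78.6, 92.0 and 80.6 with vancomycin. The samples of no pair of groups overlapped. ATF3 rose 3.08-fold with cisplatin (log2 change 1.62, SE 0.08; edgeR adjusted p = 1.34e-11) and 3.47-fold with vancomycin (1.79, SE 0.11; adjusted p = 7.3e-13), and the iohexol difference of 0.28 (SE 0.12) did not pass the test (adjusted p = 0.114).

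MAFF, a small MAF protein known to be induced by stress, had 35.5, 39.9 and 34.0 CPM in the control samples, 43.3, 36.1 and 36.5 with iohexol, 163, 163 and 153 with cisplatin and 142, 169 and 169 with vancomycin. The cisplatin and vancomycin samples overlapped, as did the control and iohexol samples, and all of the former were above all of the latter. MAFF rose 4.37-fold with cisplatin (log2 change 2.13, SE 0.07; edgeR adjusted p = 2.16e-13) and 4.25-fold with vancomycin (2.09, SE 0.10; adjusted p = 2.56e-14), with 0.10 (SE 0.11; adjusted p = 0.582) for iohexol. PLA2G6, which overlaps MAFF on the other strand, shares 0 exonic bases with it.

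MAFK, another small MAF protein, had 40.6, 58.6 and 64.9 CPM in the control samples, 73.7, 76.2 and 49.0 with iohexol, 113, 112 and 121 with cisplatin and 113, 119.7 and 129 with vancomycin. The cisplatin and vancomycin samples overlapped each other and no sample of the other groups. MAFK rose by 1.07 with cisplatin (SE 0.11; edgeR adjusted p = 2.78e-07) and by 1.09 with vancomycin (SE 0.12; adjusted p = 4.26e-08). Without the low first control sample these rises were 0.90 and 0.92 (edgeR adjusted p = 8.62e-14 and 7.09e-08), both under the fold threshold. The iohexol difference was 0.30 (SE 0.19; edgeR adjusted p = 0.291) with all samples, 0.47 (adjusted p = 0.00879) without the third iohexol sample and 0.12 (adjusted p = 0.672) without the first control sample. MAFK shares 809 of 4458 exonic bases (18.1%) with TMEM184A on the other strand, whose mean counts were 317, 426, 482 and 301 in the control, iohexol, cisplatin and vancomycin groups.

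The drugs were then compared with each other in 1 fit of all 12 samples over 17073 genes. Cisplatin against iohexol gave 8 members higher (background 26.0%) and 2 lower (27.9%), the latter FOSL2 (-0.29, SE 0.09; edgeR adjusted p = 0.00994) and JUND (-0.43, SE 0.09; adjusted p = 0.00039). FOSL2 lost that call without the second iohexol sample (adjusted p = 0.056) and under library size scaling (-0.16, adjusted p = 0.143), each leaving 1 lower. JUNB was higher with cisplatin by 1.12 (edgeR adjusted p = 2.45e-05). Without the third iohexol sample this was 0.90 (adjusted p = 4.5e-06), no longer past the fold threshold. Vancomycin against iohexol gave 9 higher (29.0%) and 0 lower (27.6%; 0 at an unadjusted p under 0.05 in edgeR, and 0 in DESeq2 and limma-voom). The difference in FOSL2 was 0.18 (edgeR adjusted p = 0.086), and it passed without the second iohexol sample (adjusted p = 0.0484) or the second vancomycin sample (0.0307).

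Vancomycin against cisplatin separated the members into those that stood higher with vancomycin and those at like levels. In that comparison 7 members were called higher (background 34.7%) and 0 lower (30.0%; 0 at an unadjusted p under 0.05 in edgeR, and 0 in DESeq2 and limma-voom). The largest differences were in FOS (1.31, SE 0.15; edgeR adjusted p = 3.24e-07) and JUNB (1.16, SE 0.17; adjusted p = 7.8e-06). JUN (0.92, SE 0.09) and JUND (0.85, SE 0.09) followed, and FOSL2 (0.47) and FOSL1 (0.42) were smaller. ATF3 was at the threshold (0.21, SE 0.09; edgeR adjusted p = 0.0483) and lost its call in DESeq2 (0.0923), with RLE factors (0.0904), with both other filters (0.106 and 0.0669) and in the fit of the 6 samples (0.0632). It also lost it when the second or the third control sample, any cisplatin sample, or the second or the third vancomycin sample was left out (adjusted p = 0.0512 to 0.197). The differences in MAFF (0.00, SE 0.09; edgeR adjusted p = 0.992) and MAFK (0.06, SE 0.14; adjusted p = 0.726) were not called. FOSB (0.26, SE 0.12; adjusted p = 0.069) passed without the first iohexol sample (adjusted p = 0.0435), the third iohexol sample (0.0379) or the first vancomycin sample (0.0194), and in limma-voom (0.0436).

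This comparison depended on scaling more than the others did. Library size scaling moved the median of all genes by -0.33, and the share of called genes that were higher with vancomycin went from 53.6% to 33.6%. FOS (0.97), JUNB (0.82), JUN (0.58) and JUND (0.52) were then still higher with vancomycin, MAFF was lower (-0.33; edgeR adjusted p = 0.00259), and FOSB (-0.07), ATF3 (-0.13) and MAFK (-0.27) changed sign without passing the test. FOSL2 (0.13; edgeR adjusted p = 0.194) and FOSL1 (0.08; adjusted p = 0.35) lost their calls. For vancomycin against iohexol the median shift was -0.21 and the higher share went from 51.3% to 34.4%, and for cisplatin against iohexol they were 0.13 and 48.2% to 58.8%.

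Levels of different genes can be set side by side only per length, here as CPM per kb of exon. In the control group the FOS family summed to 131 ± 8.55 CPM per kb (SD, n = 3), of which FOSL2 made 54.8% and FOSL1 44.2%, while FOSB made 0.562% and FOS 0.455%. With cisplatin FOS made 4.22% ± 0.216 and FOSB 6.31% ± 0.362 of the family sum (SD, n = 3), and with vancomycin 7.50% ± 1.34 and 5.40% ± 0.567. So FOSL1 and FOSL2 still held most FOS family transcripts per length in every group. The family sum was 83.2 ± 5.17 CPM per kb with iohexol, 109.8 ± 2.26 with cisplatin and 153 ± 5.43 with vancomycin (SD, n = 3).

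The JUN family summed to 239 ± 29.4 CPM per kb in the control group, 188 ± 28.5 with iohexol, 219 ± 3.21 with cisplatin and 432 ± 31.4 with vancomycin (SD, n = 3). JUND held the largest share in control cells (41.3% ± 4.29), with iohexol (56.2% ± 1.57) and with cisplatin (35.8% ± 0.448), and JUNB the largest with vancomycin (37.2% ± 1.61). The JUNB share with iohexol was 17.4% ± 2.52, against 31.8% ± 5.30 in control cells. ATF3, MAFF and MAFK together went from 24.6 ± 3.21 CPM per kb in the control group and 28.7 ± 3.50 with iohexol to 72.3 ± 0.419 with cisplatin and 76.2 ± 5.44 with vancomycin. Within these 3, MAFF went from 26.7% to 39.4% with cisplatin and 37.3% with vancomycin, while MAFK went from 49.5% to 35.8% and 35.5%.

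**Figure D3:**
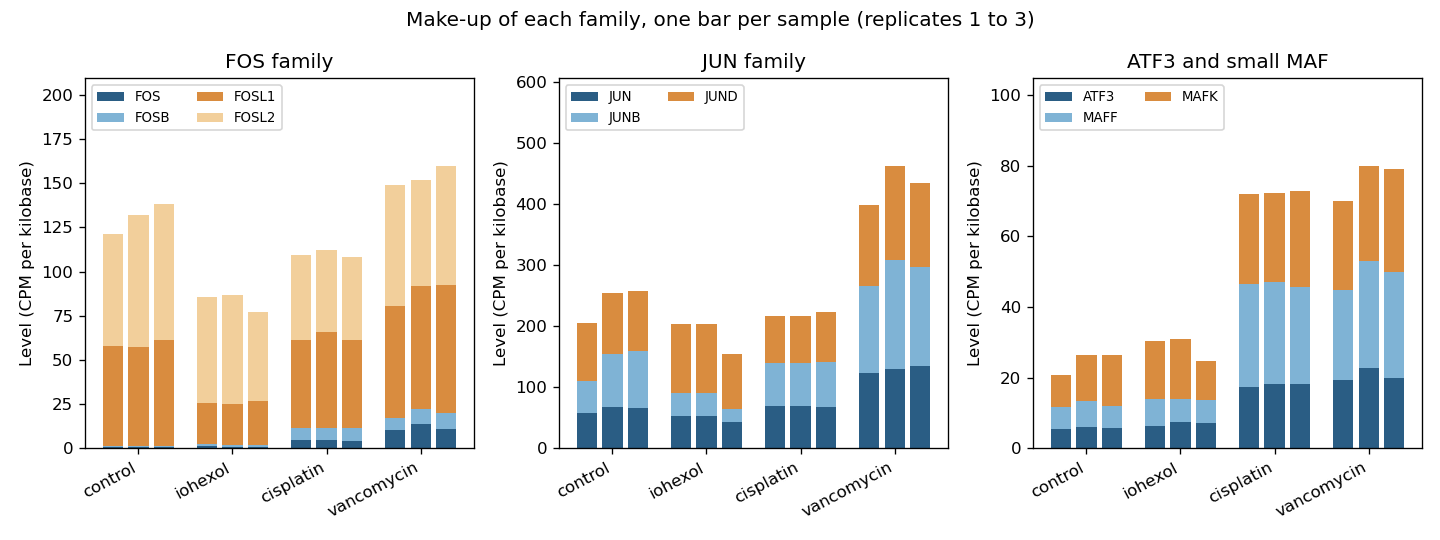
CPM per kb of exon of each gene, stacked within the FOS family, the JUN family and ATF3 with the small MAF genes, with 1 bar for each of the 12 samples. FOSL1 and FOSL2 make up most of the FOS family in every sample, and the JUN family stands highest with vancomycin (432 CPM per kb on average).

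Over the 12 samples, Pearson's r of log2 CPM among FOS, FOSB, ATF3 and MAFF was 0.955 to 0.989. JUN and JUNB were at 0.946, and FOSB with FOSL2 at -0.444. The points share libraries and fall into 4 groups, so these values describe the pattern of the groups. Among 17072 other genes, those most like FOS were SAT1 (r = 0.992), which breaks down polyamines, ZFAND2A, an arsenite-inducible protein, GABARAPL2, an autophagosome protein, SHOX2 and PTPRR (0.981). SAT1 stood at 179 ± 7.67 CPM in the control group, 179 ± 21.7 with iohexol, 393 ± 1.84 with cisplatin and 609.7 ± 78.5 with vancomycin (SD, n = 3).

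Closest to FOSB were GLA (r = 0.991), the lysosomal alpha-galactosidase, then MAFF (0.989), ATF3 (0.985), RHBDD2 and SCNM1 (0.983). Of all genes, GLA alone came before MAFF and ATF3 in likeness to FOSB. GLA went from 45.7 ± 4.90 CPM in the control group to 103 ± 2.31 with cisplatin and 122 ± 6.97 with vancomycin (SD, n = 3). Closest to JUNB were RELB (0.986), a subunit of NF-kB, ZNF787, BANF1, FSTL3 and ADAM15 (0.985). RELB had 58.8 ± 11.0 CPM in the control group, 38.9 ± 7.56 with iohexol, 54.7 ± 1.54 with cisplatin and 99.0 ± 7.01 with vancomycin (SD, n = 3), the order of groups that JUNB had.

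Other genes of the pathway were taken from lists of partners, kinases, early genes and targets, and counts are given over the listed genes tested in all 3 comparisons with control. Of 14 other bZIP genes that can pair with or compete with the members, 3 were higher and 2 lower with iohexol, 4 higher and 8 lower with cisplatin, and 7 higher and 2 lower with vancomycin. Over all genes 11.2% were higher and 9.77% lower with iohexol, 29.2% and 30.6% with cisplatin, and 29.0% and 28.8% with vancomycin, so the 4 of 14 higher with cisplatin were a share near the background. Of all 16 tested with cisplatin 8 were lower, and 4 under library size scaling (20.4% of all genes). MAFG, the remaining small MAF gene, rose with cisplatin (0.80, SE 0.07; edgeR adjusted p = 4.63e-08) and vancomycin (1.03, SE 0.09; adjusted p = 1.3e-09) and differed by 0.14 (adjusted p = 0.408) with iohexol. DDIT3 (CHOP), a factor of the unfolded protein response, was higher with iohexol (1.26), cisplatin (0.64) and vancomycin (1.34). The large MAF gene MAF fell by 1.52 with cisplatin (SE 0.09; edgeR adjusted p = 2.66e-10), with values of 0.04 and -0.01, not called, for iohexol and vancomycin. CREB5 fell most with vancomycin (-1.61, SE 0.10; edgeR adjusted p = 3.02e-12), and NFE2L3 was lower with all 3 drugs (-0.39, -0.45 and -1.10).

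The second list held 30 genes of the MAP kinase cascades and the serum response factor group, which act upstream of FOS and JUN. With cisplatin 21 of the 30 were lower and 4 higher (median log2 change -0.37), against 30.6% and 29.2% of all genes. Under library size scaling 11 were lower and 5 higher, against 20.4% and 43.6%. With vancomycin 9 were higher and 10 lower (background 29.0% and 28.8%), and with iohexol 4 higher and 3 lower (11.2% and 9.77%), all shares near the background. MAPK10, a JUN N-terminal kinase, went from 9.51 to 0.867 CPM with cisplatin (edgeR adjusted p = 8.48e-10), MAP2K6, a p38 activator, from 4.71 to 0.279 CPM (adjusted p = 9.62e-08), and RPS6KA3 (RSK2) fell by 0.85 (adjusted p = 2.18e-08). With vancomycin MAPK8 (JNK1) fell by 1.24 (SE 0.10; edgeR adjusted p = 9.4e-11), while MAP2K3 (1.05) and MAPK13 (0.99), both of the p38 branch, rose. Without the third iohexol sample the counts with iohexol were 5 and 6 (14.8% and 13.5% of all genes). With iohexol MAP3K1 and RPS6KA1 (both 0.66) rose and MAP3K5 (ASK1) fell by 0.68 (edgeR adjusted p = 0.00345). These are transcript levels, and kinase activity was not measured.

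Of 24 other early genes, 18 were higher and 4 lower with cisplatin (median 0.71), and 13 higher and 7 lower with vancomycin (median 0.53). With iohexol 1 was higher and 8 lower (median -0.26). Beside them, 29.2% of all genes were higher and 30.6% lower with cisplatin, 29.0% and 28.8% with vancomycin and 11.2% and 9.77% with iohexol, so the 7 lower with vancomycin were a share near the background. EGR1, a zinc finger factor induced by the same signals as FOS, had 9.72, 10.0 and 9.21 CPM in the control samples, 2.97, 1.73 and 3.01 with iohexol, 19.6, 23.7 and 21.7 with cisplatin and 25.3, 27.7 and 30.4 with vancomycin. No 2 groups overlapped. EGR1 fell by 1.90 with iohexol (SE 0.21; edgeR adjusted p = 7.08e-05) and rose with cisplatin (1.16) and vancomycin (1.48). The nuclear receptor genes split: NR4A1 rose with cisplatin (2.34) and vancomycin (2.58), whereas NR4A3 rose with cisplatin (3.01, SE 0.14; edgeR adjusted p = 9.12e-12) and fell by 0.98 with vancomycin (adjusted p = 0.00727). SERTAD1, a cell cycle cofactor, rose by 2.51 with cisplatin and 1.35 with vancomycin, and KLF4 was the early gene that rose with iohexol (0.98). CCN1 and CCN2, secreted matricellular proteins that also respond to YAP, fell by 2.19 and 2.42 with vancomycin (edgeR adjusted p = 9.25e-16 and 1.69e-16).

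Genes with well known AP-1 sites were examined next. Of 23 such genes tested in all 3 comparisons, 13 were higher and 7 lower with vancomycin (median 0.68), 6 higher and 14 lower with cisplatin (median -0.41), and 6 higher and 11 lower with iohexol (median -0.21). The shares over all genes were 29.0% higher and 28.8% lower with vancomycin, 29.2% and 30.6% with cisplatin and 11.2% and 9.77% with iohexol. The 7 lower with vancomycin and the 6 higher with cisplatin were near these shares. MMP1, the interstitial collagenase, had 31.2, 35.4 and 30.97 CPM in the control samples, 18.5, 12.3 and 18.5 with iohexol, 7.70, 7.45 and 9.45 with cisplatin and 337, 427 and 389 with vancomycin. The cisplatin samples were lowest and the vancomycin samples highest, and no groups overlapped. MMP1 rose by 3.52 with vancomycin (SE 0.11; edgeR adjusted p = 4.33e-18) and fell by 1.99 with cisplatin (SE 0.12; adjusted p = 1.69e-10), and the direct difference between both drugs was 5.55 (SE 0.15; adjusted p = 2.06e-16).

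IL11, a cytokine of the IL6 family, rose instead with both: it had 17.6 ± 3.05 CPM in the control group, 5.60 ± 0.828 with iohexol, 123 ± 1.54 with cisplatin and 161 ± 16.3 with vancomycin (SD, n = 3). Its log2 change was 2.80 with cisplatin, 3.15 with vancomycin and -1.64 with iohexol (edgeR adjusted p = 1.7e-13, 2.73e-16 and 5.41e-05). PLAUR, the urokinase receptor, followed the same signs (0.60, 2.46 and -1.16). SPP1 (osteopontin) fell by 1.63 with cisplatin and rose by 1.59 with vancomycin. GDF15, a stress cytokine, was higher with all 3, by 2.15 with iohexol. KRT17, MMP3, MMP10 and MMP13 passed the low-count filter with vancomycin alone and are left out of the counts. MMP13 had 13.6, 16.0 and 17.2 CPM there against at most 1.21 CPM in any other sample.

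The last list held targets of NRF2 and the small MAF proteins. All 14 of its genes that were tested in every comparison were higher with vancomycin (median 1.28, background 29.0%), whereas with cisplatin 3 were higher and 7 lower (median -0.10, background 29.2% and 30.6%) and with iohexol 5 higher and 3 lower (median -0.03, background 11.2% and 9.77%). Under library size scaling 6 were higher and 5 lower with cisplatin, beside 43.6% and 20.4% of all genes. HMOX1, which breaks down heme, had 47.7, 56.8 and 57.9 CPM in the control samples, 58.7, 53.9 and 40.1 with iohexol, 43.3, 35.9 and 36.2 with cisplatin and 551, 658 and 651 with vancomycin. All vancomycin samples stood far above the rest. HMOX1 rose by 3.47 with vancomycin (SE 0.10; edgeR adjusted p = 4.33e-18) and fell by 0.50 with cisplatin (adjusted p = 0.000206). The ferritin genes differed: FTL rose with vancomycin (1.88) and changed by -0.03 and -0.04, not called, with cisplatin and iohexol, whereas FTH1 rose with vancomycin (1.14) and iohexol (1.00). OSGIN1 rose with cisplatin (2.04) and vancomycin (2.97), and the cystine carrier gene SLC7A11 fell by 1.54 with cisplatin and rose with iohexol (0.77) and vancomycin (1.22). ME1 fell by 0.75 with cisplatin, and TXNRD1, a thioredoxin reductase, fell by 0.63 with iohexol and rose by 1.13 with vancomycin. AKR1C1 stood at 0.233 CPM in the control group, near the floor, and at 2.34 with iohexol and 3.88 with vancomycin.

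**Figure D4:**
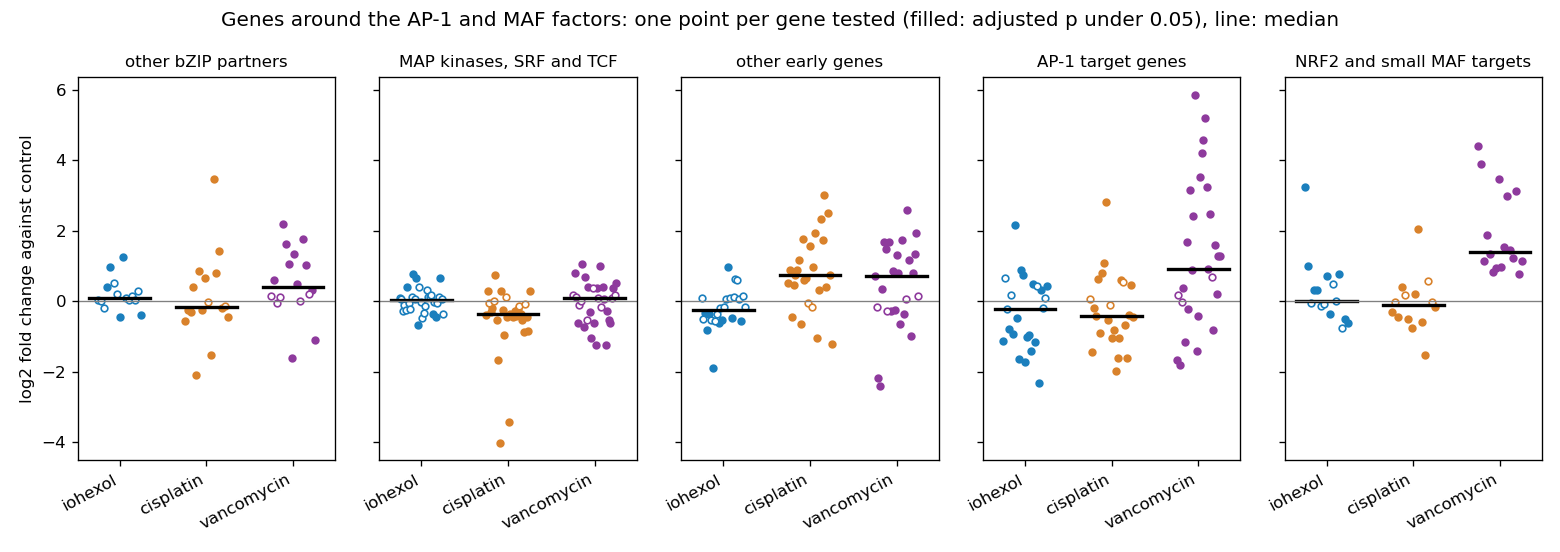
Log2 fold changes against the control group of the genes in each list for the 3 drugs (1 point per gene tested in that comparison, filled where the adjusted p was under 0.05, with a line at the median of all points shown). The NRF2 and small MAF targets lie above 0 with vancomycin and on both sides of 0 with cisplatin, where most MAP kinase genes lie below 0.

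The labelled cell type was set beside its markers. PAX8, a transcription factor of kidney tubules, was the most abundant of 12 proximal tubule genes (382 CPM on average), while LRP2 (megalin) did not exceed 0.188 CPM and the anion carrier gene SLC22A6 had 0 counts in all samples, which allows up to 0.218 CPM. The summed level of the 12 genes, led by PAX8, was 566 CPM in the control group, 775 with iohexol, 305 with cisplatin and 776 with vancomycin. Of the 4 tested in every comparison, 2 were higher and 0 lower with iohexol (background 11.2% and 9.77%). With cisplatin 0 of the 4 were higher and 2 lower (29.2% and 30.6%). With vancomycin 1 was higher, a share near the background, and 0 lower (29.0% and 28.8%). KRT8, the top gene of 9 epithelial line markers, averaged 643 CPM, and their sum was 2023, 1491, 1969 and 2419 CPM in the same order. The epithelial sums hide single genes that moved both ways. Of the 8 epithelial genes tested, 4 were higher and 4 lower with cisplatin (background 29.2% and 30.6%). With vancomycin 4 were higher and 4 lower (29.0% and 28.8%), and with iohexol 4 were lower (9.77%). CDH1 (E-cadherin) did not exceed 0.502 CPM in any sample.

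Markers of other cell types were low, with 1 exception. The 7 fibroblast genes summed to 123 CPM in the control group, 109.9 with iohexol, 108 with cisplatin and 255 with vancomycin. Of the 3 tested in every comparison, 1 was higher and 2 lower with cisplatin (background 29.2% and 30.6%), and all 3 were higher with vancomycin (29.0%). With iohexol 0 of the 3 were higher and 1 lower (11.2% and 9.77%). PDGFRB did not pass the low-count filter with iohexol and is left out of these counts. LUM (lumican) led them with 98.8 CPM on average, and 4 of the 7 had at least 3 counts in every sample. COL1A2 and PDGFRA had 0 counts in every control and vancomycin sample but some in iohexol or cisplatin samples. COL3A1 had at most 0.197 CPM in any sample. The 5 endothelial genes summed to 0.396 to 4.08 CPM and the 5 distal tubule genes to 0.486 to 2.95 CPM in the group means. The 7 leukocyte genes summed to 15.5 CPM in the control group, 11.9 with iohexol, 9.12 with cisplatin and 16.8 with vancomycin, led by CSF1R at 10.5 CPM, with PTPRC at most 0.338 CPM. The part of the LUM and PAX8 differences in the changes of the AP-1 genes was not tested.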

How the data were processed

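RNA of 12 HK-2 samples was sequenced. Per the labels and the submitters' processing notes, poly(A) RNA was selected and prepared with a NEBNext Ultra kit, and CASAVA 1.8, fastp, HISAT2 2.0.5, featureCounts 1.5.0-p3 and DESeq2 1.20.0 are named. The authors deposited 1 table of raw counts per gene, with gene positions and lengths. The build, strand setting and treatment of reads with several matches are not given in the sources used here.

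Counts of 3 drug and 3 control samples were fitted for each drug with edgeR 4.0.16 (R 4.3.3), TMM scaling, filterByExpr (minimum count 10, total 15) and the quasi-likelihood test. Drugs were compared in 1 fit of all 12 samples. P-values were adjusted by Benjamini-Hochberg over all genes tested, and standard errors were derived from the fold change and its F statistic. CPM used the TMM factors of the 12-sample fit, and log2 CPM a prior count of 2. The fits were tested on simulated data with 200 changed genes. Alternatives were DESeq2 1.42.0, limma-voom (limma 3.58.1), RLE factors, library size only, no filter, at least 10 counts in every sample, the other choice of samples, a replicate block and leaving out each sample.

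The members and all lists were chosen with earlier results of these data known. Named were the 10 members, genes that overlap them, the 3 listed genes with the smallest p per list and drug, and the 5 genes most like each of the 3 members with the widest range of group means (FOS, FOSB and JUNB). Some genes that this rule names are not reported here. KRT17, MMP3, MMP10 and MMP13 and the marker genes were named after their values were seen. Marker lists held 12 proximal tubule, 9 epithelial, 7 fibroblast, 5 endothelial, 7 leukocyte and 5 distal tubule genes. Replicates were compared by chi-square of their counts and none was a repeat of another. Counting error sets the precision of low genes, and the floor of 3 counts covers counting error only.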

Additional observations from a re-analysis of the deposited data

How the results depend on the processing

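Of 1020 values of single members under the alternatives, 948 kept their direction and their side of the threshold, 39 kept the direction and lost the call, 17 kept it and gained the call, and 16 changed sign, some of them also losing or gaining a call. The rises of FOS, FOSB, ATF3, MAFF and MAFK with cisplatin and vancomycin and the falls of FOSL1 and JUNB with iohexol kept their call under every alternative run. The number of samples, 3 a group, and the low counts of FOS in control cells limit the precision of its fold changes.

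With library size scaling 1 member was called lower with cisplatin (20.4% of all genes) and 1 with vancomycin (33.0%). For cisplatin against iohexol 8 were higher and 1 lower, beside 33.1% and 23.1% of all genes. For vancomycin against cisplatin 4 were higher and 1 lower, beside 23.1% and 45.8% of all genes, and 0 were DEGs. Under this scaling the log2 change turned to 0.047 for FOSL1 and 0.12 for JUNB with cisplatin, and to -0.025 for FOSL2 in vancomycin against iohexol. In vancomycin against cisplatin it turned to -0.075 for FOSB, -0.13 for ATF3, -0.33 for MAFF and -0.27 for MAFK. The change of MAFF in that comparison, 0.00 in edgeR, was -0.033 in DESeq2 and with RLE factors, -0.0033 in limma-voom, -0.021 with at least 10 counts in every sample and -0.054 in the fit of the 6 samples. Beyond the scaling itself, the cause was not tested.

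The counts of listed genes under other scalings and without the 2 samples that stood apart were added after seeing the data. Leaving out single samples gave 0 to 3 members higher and 1 to 2 DEGs with iohexol. The genes called in either direction then ran from 1849 of 16209 to 4544 of 16067. Of these, 52.0% to 55.5% were higher. With vancomycin 0 to 1 members were lower and 4 to 7 were DEGs. There 8280 of 16223 to 8782 of 16266 genes were called in either direction, 50.5% to 50.9% of them higher. For cisplatin against iohexol 1 to 2 members were lower. In that comparison 8217 of 17568 to 9467 of 17732 genes were called in either direction, 46.7% to 48.1% of them higher. These counts of all genes hold any fold change, so they give no share for the DEGs. Such omissions gave -0.31 to 0.034 for JUNB with cisplatin and -0.034 to 0.087 for MAFF in vancomycin against cisplatin.

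The replicate numbers did not pair the samples: the mean correlation of deviations was -0.0209 over 18 same-numbered pairs and 0.0107 over 36 others. With a replicate block, 2096 of 15657 genes were called with iohexol, 56.3% of them higher. Of the members 0 were then higher with iohexol, where FOSB (adjusted p = 0.0518) and JUN (0.0798) were not called. ATF3 in vancomycin against cisplatin was not called either (0.0509). No other call on a member changed with the block.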
